A study of Sus scrofa with 50 samples.

Results

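The genes examined encode the core proteins of the basement membrane and its neighbouring matrix: the network collagens COL4A1 and COL4A2, the basement membrane collagen COL18A1, the laminin chains LAMA1, LAMB1 and LAMC1, the linker proteins NID2 and HSPG2, the collagen-binding protein SPARC, and fibronectin, FN1. They were chosen by name, as a functional family, and make up 10 of the 30321 genes measured. The choice was made with earlier results of these data known, so counts of members set beside shares of all genes are a description. Single porcine embryos were sequenced after development in vivo or production in vitro, to follow each source through development and to compare the sources at the hatched blastocyst stage. In vivo embryos came from German Landrace × Pietrian gilts inseminated with sperm of a Duroc boar, and were flushed 2 days (4-cell embryos, n = 5), 4 days (morulae, n = 10) or 6 days (hatched blastocysts, n = 10) later. In vitro embryos came from abattoir oocytes matured in culture, fertilized with frozen sperm of the same boar and cultured in Porcine Zygote Medium-5. They were collected 48 h (4-cell embryos, n = 5), 100 h (compacted morulae, n = 10) and just over 7 days (hatched blastocysts, n = 10) after fertilization. The in vitro 4-cell embryos and morulae were picked from a population preselected as 2-cell embryos. The gilts were synchronized with altrenogest and given gonadotropins, and the abattoir oocytes were matured with gonadotropins, FGF2, LIF and IGF1. Source, oocyte donors, hormone treatment, sperm handling and embryo age therefore cannot be told apart. Each group stemmed from several gilts or in vitro experiments, but which embryo belonged to which is not given in the sources used here, so litter mates were counted as independent.

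Basement membranes are thin sheets of matrix on which epithelia rest. Laminins, each a trimer of 1 alpha, 1 beta and 1 gamma chain, polymerize first on the cell surface, a collagen IV network is laid over them, and nidogens and perlecan link both networks. In the mouse blastocyst these proteins accumulate under the trophectoderm and between the inner cell mass and the primitive endoderm (hypoblast), and the endoderm that lines the yolk sac is a rich source of laminin and collagen IV.

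Expression is given as counts per M reads (CPM). A fold change is a difference of mean log2(CPM + 1), which understates the change of genes near 0, and a gene was called differentially expressed (DEG) when the limma adjusted p over all genes tested was under 0.001 and the absolute log2 fold change was over 1. Libraries held 4.28 ± 1.42 M gene-assigned reads (SD, n = 50; 1.44 to 8.63 M), and 3 were under 2 M, namely morula F1 from in vivo and the hatched blastocysts D3 and E4 from in vitro. Genes with a read were fewest in the in vivo 4-cell embryos (10098 ± 2779, SD, n = 5), with 6209 in embryo C1. RNA quality differed between the sources before the hatched blastocyst stage, for which reason the original work left those comparisons out, and the values given for them below carry that limit. The study sexed morulae, which still had sperm attached, and hatched blastocysts by DDX3Y, EIF1AY and EIF2S3Y. Here EIF1AY alone was checked, with both stages pooled. Of the embryos labelled female, 8 of 15 had over 10 CPM of the Y-linked EIF1AY, and of those labelled male, 10 of 25 did not, so sex labels were not used. Trophectoderm markers were present in all 20 hatched blastocysts, with 8 of 8 detected in each source and summed levels of 4618 to 10602 CPM. In whole embryos, fewer cells of a type and less RNA per cell cannot be told apart.

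The members fell into 3 broad courses. LAMB1, LAMC1 and NID2 had lower medians in morulae than in 4-cell embryos of either source, and LAMB1 and LAMC1 had higher medians again in hatched blastocysts. COL4A1, COL4A2, COL18A1, LAMA1 and FN1 had their highest medians in in vivo hatched blastocysts, as did LAMC1 and, at 0.367 CPM, SPARC. HSPG2 and SPARC had medians of 3.23 CPM or less in every group. From 4-cell embryos to morulae, 2 of 8 tested members were called in vivo, both lower, where 22.8% of all genes were called, and 4 of 10 in vitro, 1 higher and 3 lower, where 38.7% were. From morulae to hatched blastocysts, 6 of 10 rose in vivo, where 5.81% of all genes were called higher, and 2 of 9 rose in vitro, where 9.98% were. Between the sources, 4 of 10 were higher in in vivo hatched blastocysts, where 2.2% of all genes were called higher. Neither the morulae (0 of 9, with 2.47% of all genes called) nor the 4-cell embryos (0 of 8, with 0%) gave a call among the members.

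**Figure D1:**
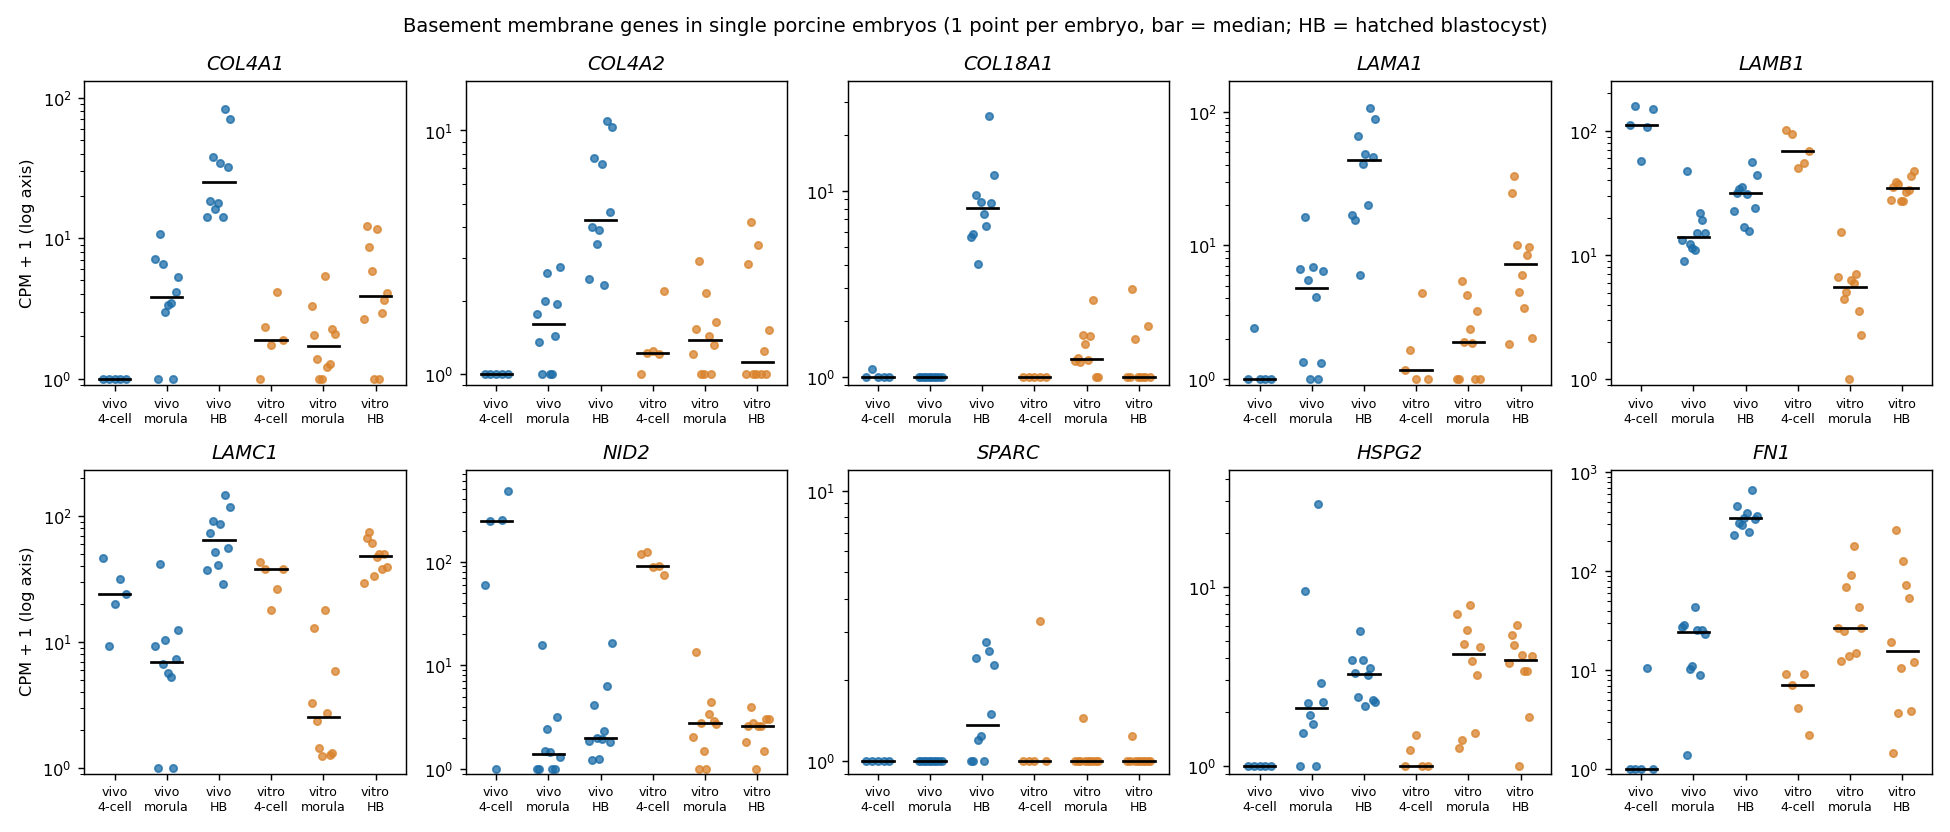
CPM + 1 of each member in each embryo on a log axis, by source and stage, with 1 point per embryo and a bar at the group median. COL4A1 and COL18A1 of the in vivo hatched blastocysts lay above every other embryo of the hatched blastocyst stage, and NID2 and LAMB1 were highest in 4-cell embryos.

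COL4A1 and COL4A2 encode the alpha 1 and alpha 2 chains that assemble into the main collagen IV trimer. No read of either gene was found in any of the 5 in vivo 4-cell embryos, which allows a group mean of up to 0.0920 CPM for each (3 reads over the group). In the in vitro 4-cell embryos COL4A1 was at 0 (A1), 1.32 (B1), 0.727 (C1), 3.15 (D1) and 0.897 CPM (E1). COL4A1 then ranged from 0 to 9.72 CPM in in vivo morulae (median 2.80) and from 0 to 4.38 CPM in in vitro morulae (median 0.713), so the morulae of both sources overlapped. In hatched blastocysts it ranged from 13.0 to 82.0 CPM in vivo (median 24.2) and from 0 to 11.2 CPM in vitro (median 2.84). Every in vivo hatched blastocyst thus exceeded every in vivo morula and every in vitro hatched blastocyst, a separation in the higher direction that 2.97% and 0.928% of all genes showed in these 2 comparisons.

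The fitted rise of COL4A1 from morula to hatched blastocyst was 2.93 ± 0.43 in vivo (log2 fold change ± SE; limma, adjusted p = 8.83e-06), and its difference between the sources at the hatched blastocyst stage was 2.82 ± 0.43 (limma, adjusted p = 2.43e-05). In vitro the step from morula to hatched blastocyst gave 1.11 ± 0.44 (limma, adjusted p = 0.0432) and was not called. The difference between the 2 steps (interaction of source with stage), 1.82 ± 0.65, was not called either (limma, adjusted p = 0.0415). Between the morulae, in vivo minus in vitro was 1.0 ± 0.43 (limma, adjusted p = 0.108). The 2 in vitro hatched blastocysts without a COL4A1 read, D3 and E4, were the 2 with the fewest reads, and without these and morula F1 the differences were called as before, at 2.33 for the sources and 2.93 for the in vivo step. From 4-cell embryo to morula COL4A1 was not called in vivo (1.85 ± 0.53, limma adjusted p = 0.00752), although the in vivo morula mean was at least 38.6-fold higher than the limit for the empty 4-cell group, and DESeq2 on the recovered reads called it (adjusted p = 4.55e-06).

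COL4A2 followed the course of COL4A1. It ranged from 1.32 to 9.97 CPM in in vivo hatched blastocysts (median 3.31) and from 0 to 3.20 CPM in vitro (median 0.119), where 5 of 10 embryos had no read, and the ranges overlapped. Morulae held 0 to 1.74 CPM in vivo and 0 to 1.92 CPM in vitro. The rise in vivo was 1.65 ± 0.33 (limma, adjusted p = 0.000372), the difference between the sources 1.68 ± 0.34 (limma, adjusted p = 0.000595) and the step in vitro 0.11 ± 0.28 (limma, adjusted p = 0.772). The difference between the steps, 1.55 ± 0.44, was not called (limma, adjusted p = 0.00943). The in vivo step lost its call with a pseudocount of 5 CPM (0.71, under the fold threshold) and with edgeR (2.62, adjusted p = 0.00143). The call between the sources lay close to the threshold: it was lost in 12 of the 20 fits that left out 1 embryo (adjusted p from 0.000165 to 0.00152 over the 20), with a pseudocount of 5 CPM (0.70, under the fold threshold), without the filter on low genes, without the embryos under 2 M reads (1.53, adjusted p = 0.00263) and with edgeR (2.27, adjusted p = 0.00353). Within an in vivo hatched blastocyst, COL4A1 had 5.26 to 10.0 times the reads of COL4A2 (median 6.80, 10 embryos), and in the 5 in vitro hatched blastocysts with reads of both, 2.38 to 8.0 times (median 6.0). These are ratios of reads, not adjusted for length, and serve only to compare embryos. The genes overlap by 525 bases on chromosome 11 of Sscrofa11.1 (COL4A1 at 76858332 to 76997409, COL4A2 at 76996885 to 77161617), so reads from the shared stretch cannot be told apart.

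COL18A1 encodes collagen XVIII, a heparan sulfate bearing collagen of basement membranes whose C-terminal fragment is endostatin. It lies on chromosome 13 (207907835 to 207984082) and separated the hatched blastocysts most cleanly. The in vivo hatched blastocysts ranged from 3.02 to 24.3 CPM (median 7.04), whereas the in vitro ones ranged from 0 to 1.97 CPM, with no read in 7 of 10. The highest in vitro embryo, C3, was therefore below the lowest in vivo embryo, D3. No read was found in any in vivo morula, and 8 of 10 in vitro morulae had 0.192 to 1.58 CPM. Of the 4-cell embryos, 1 in vivo embryo had a single read and the in vitro embryos had none.

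The in vivo hatched blastocyst mean of COL18A1 was at least 118-fold higher than the limit for the empty in vivo morulae (0.0708 CPM, 3 reads over the group), and the limma test called the step (adjusted p = 6.11e-09). In vitro the step was -0.14 ± 0.21 (limma, adjusted p = 0.583). The difference between the steps was 3.18 ± 0.33 (limma, adjusted p = 1.04e-08), which makes COL18A1 1 of 3 members whose change differed between the sources by this test, where 4.49% of all genes did. Between the hatched blastocysts the difference was 2.72 ± 0.29 (limma, adjusted p = 1.10e-07). It was called in every fit that left out 1 embryo, from 2.54 to 2.86.

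**Figure D2:**
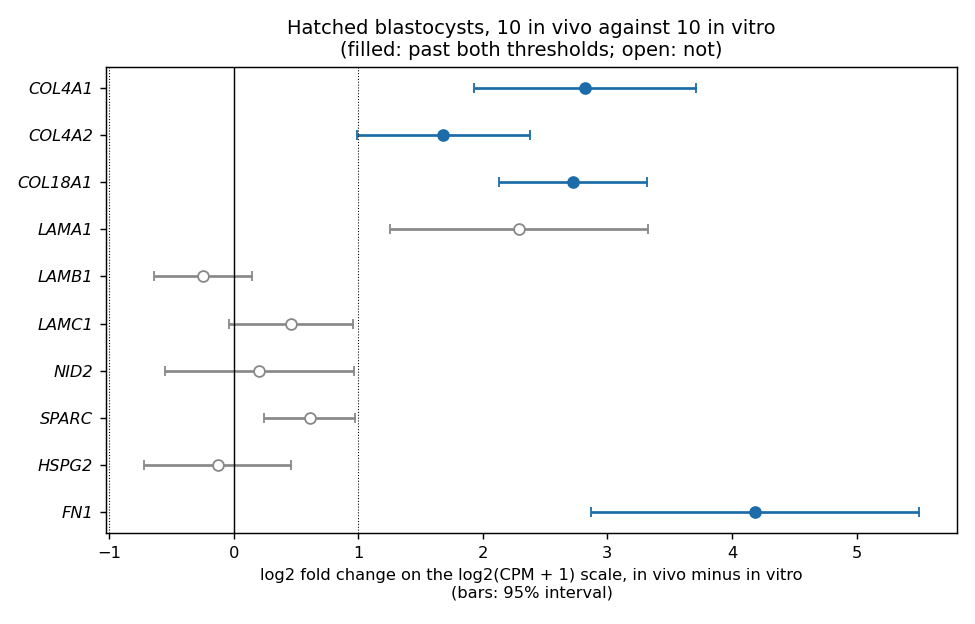
Log2 fold change of each member on the log2(CPM + 1) scale, 10 in vivo minus 10 in vitro hatched blastocysts, with 95% intervals, filled where past both thresholds. FN1, COL4A1, COL18A1 and COL4A2 were called higher in vivo, LAMA1 at 2.29 missed the adjusted p threshold, and the intervals of LAMB1, LAMC1, NID2 and HSPG2 included 0.

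LAMA1, LAMB1 and LAMC1 encode the alpha 1, beta 1 and gamma 1 chains of the laminin trimer that is typical of early embryos. They did not move as a unit. LAMB1 was present from the start: the in vivo 4-cell embryos had 110 (A1), 157 (B1), 56.3 (C1), 106 (D1) and 150 CPM (E1), and the in vitro 4-cell embryos 101 (A1), 93.6 (B1), 49.2 (C1), 54.2 (D1) and 67.6 CPM (E1). Morulae held 8.03 to 46.6 CPM in vivo (median 13.0) and 0 to 14.3 CPM in vitro (median 4.51). In both sources every morula lay below every 4-cell embryo, as for 5.04% of all genes in vivo and 19.7% in vitro. The fall of LAMB1 was -2.83 ± 0.42 in vivo (limma, adjusted p = 1.72e-05) and -3.93 ± 0.46 in vitro (limma, adjusted p = 1.44e-07), and it was called in each fit that left out 1 embryo in either source.

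In hatched blastocysts LAMB1 was again similar in both sources, at 14.5 to 55.5 CPM in vivo (median 30.5) and 26.1 to 46.2 CPM in vitro (median 33.4), and the fitted difference was -0.25 ± 0.19 with an interval of -0.64 to 0.15 (limma, adjusted p = 0.399). The rise from the morula passed the test in vitro, at 2.89 ± 0.32 (limma, adjusted p = 4.34e-08), where LAMB1 and LAMC1 were higher in every hatched blastocyst than in any morula, as were 5.88% of all genes, and not in vivo, at 0.90 ± 0.28 (limma, adjusted p = 0.0169). The difference between the steps, -1.98 ± 0.44, passed narrowly (limma, adjusted p = 0.000972) and was lost in all 4 alternative fits (adjusted p from 0.00169 to 0.00659). The lower starting level of the in vitro morulae stood beside it: in vivo minus in vitro morulae was 1.74 ± 0.40 (limma, adjusted p = 0.00346, not called). On chromosome 9 LAMB1 (107670120 to 107747242) shares 5508 bases with LOC100623096, which fell with it from a mean of 18.8 to 2.18 CPM in vivo and was near 2 CPM in hatched blastocysts of both sources (1.99 and 2.10 CPM).

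LAMC1 took the same course at 4 cells and diverged later. The in vivo 4-cell embryos had 45.9 (A1), 8.38 (B1), 18.9 (C1), 31.0 (D1) and 23.2 CPM (E1), and the in vitro 4-cell embryos 42.4 (A1), 37.1 (B1), 17.0 (C1), 25.2 (D1) and 37.4 CPM (E1). Morulae ranged from 0 to 40.5 CPM in vivo (median 6.01) and from 0.250 to 16.8 CPM in vitro (median 1.54). The fall was called in vitro (-3.33 ± 0.58, limma adjusted p = 3.65e-05), where no morula reached the lowest 4-cell embryo, and not in vivo (-1.92 ± 0.74, limma adjusted p = 0.0395). edgeR did not call the in vitro fall (adjusted p = 0.00453).

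From morula to hatched blastocyst LAMC1 rose in both sources, by 3.40 ± 0.49 in vivo (limma, adjusted p = 7.93e-06) and by 3.91 ± 0.42 in vitro (limma, adjusted p = 1.82e-08), and the difference between these steps was -0.51 ± 0.68 (limma, adjusted p = 0.628). In vivo hatched blastocysts held 27.9 to 146 CPM (median 63.9) and in vitro ones 28.3 to 74.2 CPM (median 47.6). The source difference of 0.46 ± 0.24 was not called, with an interval of -0.04 to 0.96 (limma, adjusted p = 0.183). LAMC1 has its locus on chromosome 9 (124283668 to 124405967). The ratio of LAMC1 to LAMB1 reads within an embryo was 1.49 to 2.85 in in vivo hatched blastocysts (median 2.43) and 0.828 to 1.95 in in vitro ones (median 1.40). At the 4-cell stage it was 0.0532 to 0.417 in vivo and 0.345 to 0.553 in vitro. These ratios were looked at after the values were seen and are a description only.

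LAMA1, the chain that gives the trimer its cell binding domains, was nearly absent at the 4-cell stage, where 1 of 5 in vivo embryos (B1, 1.41 CPM) and 3 of 5 in vitro embryos (0.175 to 3.36 CPM) had reads. In vivo morulae held 0 to 15.4 CPM (median 3.79) and in vitro morulae 0 to 4.41 CPM (median 0.882). In vivo hatched blastocysts held 5.03 to 106 CPM (median 42.3) and in vitro ones 0.824 to 32.3 CPM (median 6.20), so the ranges overlapped, with 6 of 10 in vivo embryos above every in vitro embryo. The rise in vivo was 3.31 ± 0.54 (limma, adjusted p = 3.85e-05). In vitro it was 1.85 ± 0.49 and not called (limma, adjusted p = 0.00292), and the difference between the steps was 1.46 ± 0.77 (limma, adjusted p = 0.185).

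The source difference of LAMA1 at the hatched blastocyst stage, 2.29 ± 0.50, just missed the threshold (limma, adjusted p = 0.00140). Leaving out 1 embryo gave adjusted p from 0.000244 to 0.00334, and the difference was called without in vivo D3 (2.56), in vitro B4 (2.50) or in vitro C3 (2.54). LAMA1 is on chromosome 6 (100332843 to 100468457) and overlaps LOC110261169, which averaged 0.179 CPM or less in hatched blastocysts.

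**Figure D3:**
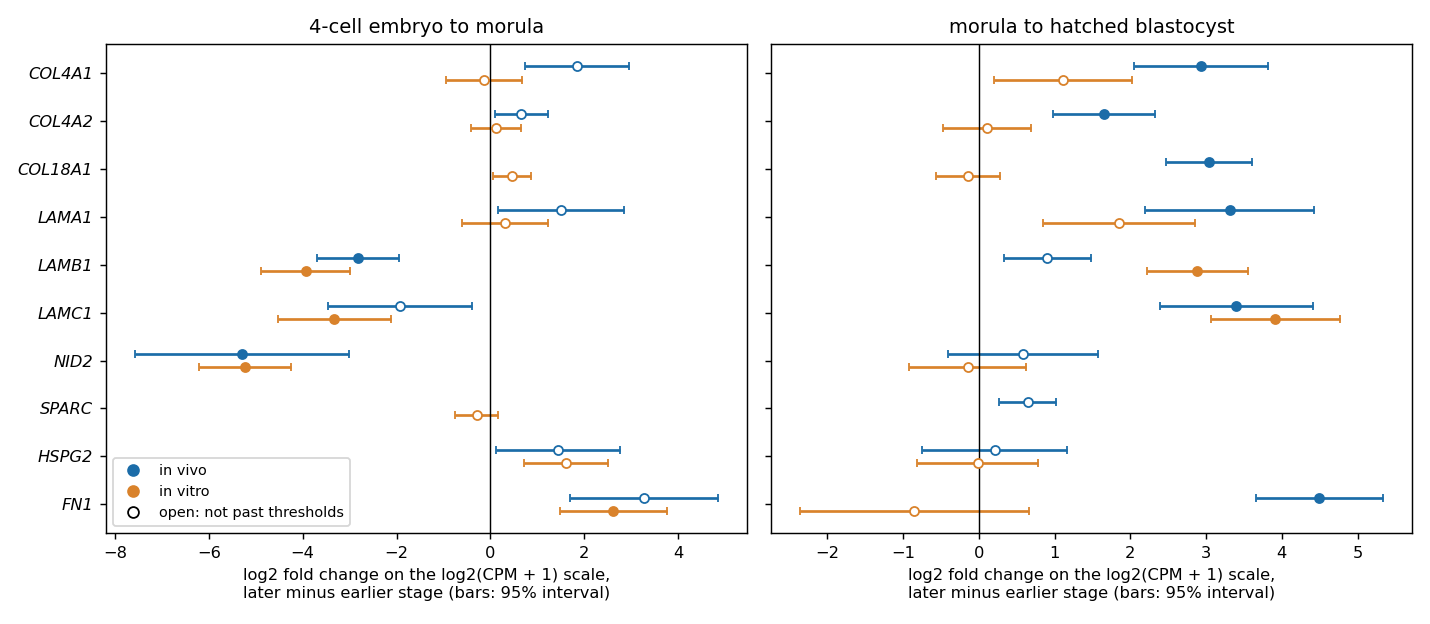
Log2 fold change of each member on the log2(CPM + 1) scale, later minus earlier stage, for the in vivo and in vitro embryos, with 95% intervals and filled points where past both thresholds. LAMB1 and NID2 fell from 4-cell embryo to morula in both sources, LAMC1 rose to the hatched blastocyst in both, and COL18A1 and FN1 were called at the step to the hatched blastocyst in vivo and not in vitro, with interaction values of 3.18 and 5.35.

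NID2 encodes nidogen 2, which bridges laminin and collagen IV. Most of its reads came from the 4-cell stage. The in vivo 4-cell embryos had 58.4 (A1), 247 (B1), 0 (C1), 251 (D1) and 482 CPM (E1), and the in vitro 4-cell embryos 118 (A1), 122 (B1), 88.4 (C1), 89.1 (D1) and 73.0 CPM (E1). In vivo embryo C1, with the fewest genes detected, was the sole 4-cell embryo with no NID2 read. Morulae fell to 0 to 14.6 CPM in vivo (median 0.394) and 0 to 12.5 CPM in vitro (median 1.75), with the maximum in an embryo coded B2 in each source. In vitro morula B2 also kept the most oocyte transcripts, with 2042 CPM summed over 8 oocyte markers against a group median of 145 CPM. Whether that accounts for its NID2 level was not tested.

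The fall of NID2 was -5.23 ± 0.47 in vitro (limma, adjusted p = 4.35e-09) and -5.30 ± 1.09 in vivo (limma, adjusted p = 0.000505). The in vivo call was lost in 9 of 15 fits that left out 1 embryo (adjusted p from 2.02e-07 to 0.00259), and leaving out C1 gave the lowest of these p-values, with a fall of -6.84. It was also lost with a pseudocount of 0.1 CPM, without the filter and without the embryos under 2 M reads (adjusted p = 0.00361, 0.00117 and 0.00104). In hatched blastocysts NID2 stayed low, at 0.231 to 15.4 CPM in vivo (median 0.969, highest in H4) and 0 to 2.96 CPM in vitro (median 1.6), a difference of 0.21 ± 0.37 with an interval of -0.55 to 0.96 (limma, adjusted p = 0.733). Neither step from the morula was called, at 0.58 ± 0.48 in vivo (limma, adjusted p = 0.409) and -0.15 ± 0.38 in vitro (limma, adjusted p = 0.762). NID2 is on chromosome 1 (181699098 to 181773084).

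HSPG2 encodes perlecan, the large heparan sulfate proteoglycan of basement membranes. It was close to absent at 4 cells, with no read in vivo and 0.220 CPM (B1) and 0.484 CPM (C1) in the 2 in vitro embryos that had any. Its medians were then between 1.09 and 3.23 CPM. In vivo morulae held 0 to 28.2 CPM (median 1.09), in vitro morulae 0.261 to 6.92 CPM (median 3.23), in vivo hatched blastocysts 1.16 to 4.63 CPM (median 2.25) and in vitro hatched blastocysts 0 to 5.10 CPM (median 2.91). The morula maximum of 28.2 CPM in vivo was a single embryo, G1. No comparison called HSPG2 in the limma test. The in vitro step from 4-cell embryo to morula came closest, at 1.61 ± 0.43 (limma, adjusted p = 0.00269), and edgeR and DESeq2 called it (adjusted p = 0.000988 and 0.000113). In vivo DESeq2 called the same step (adjusted p = 0.000383), which in limma stood at 1.43 ± 0.63 (adjusted p = 0.0722). The hatched blastocysts of both sources differed by -0.13 ± 0.29, with an interval of -0.72 to 0.46 (limma, adjusted p = 0.787). HSPG2 is on chromosome 6 (79849691 to 79958283) and overlaps LDLRAD2 by 621 bases.

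SPARC encodes osteonectin, a secreted glycoprotein that binds collagen IV and is a classical product of mouse parietal endoderm. It was barely detected. Reads were found in 7 of 10 in vivo hatched blastocysts (0.201 to 1.76 CPM), in 1 of 10 in vitro hatched blastocysts (C3, a single read), in 1 in vitro morula, in 1 in vitro 4-cell embryo (D1, 2.31 CPM) and in no in vivo morula or 4-cell embryo. The difference between the hatched blastocysts, 0.61 ± 0.18, was not called (limma, adjusted p = 0.0141). The in vivo step from the morula was 0.64 ± 0.18 (limma, adjusted p = 0.0102), with a hatched blastocyst mean at least 9.77-fold higher than the limit for the empty morulae. The annotation overlaps the whole of SPARC (chromosome 16, 71368164 to 71380972) with LOC110257252, whose mean was 1.57 CPM or less in every group. Reads in the overlap could have gone to either gene or to none, so the SPARC values are uncertain.

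FN1 encodes fibronectin, the integrin-binding matrix glycoprotein that adjoins basement membranes. At 4 cells it was at 0 in 4 of 5 in vivo embryos and at 9.5 CPM in D1, while the in vitro embryos had 8.24 (A1), 6.15 (B1), 3.15 (C1), 8.20 (D1) and 1.20 CPM (E1). Morulae held 0.405 to 42.2 CPM in vivo (median 23.4) and 11.5 to 180 CPM in vitro (median 25.8). The rise was called in vitro (2.62 ± 0.54, limma adjusted p = 0.000254), where every morula exceeded every 4-cell embryo, as for 13.7% of all genes. In vivo it was 3.27 ± 0.76 and missed the threshold (limma, adjusted p = 0.00150). The in vivo rise passed without 4-cell embryo D1 (3.95, adjusted p = 0.000217) or without morula B2 (3.65, adjusted p = 0.000107), and the in vitro one was lost without 4-cell embryo C1 (adjusted p = 0.00110) or E1 (adjusted p = 0.00161) and with a pseudocount of 5 CPM (adjusted p = 0.00125). The 2 rises were not shown to differ, at 0.65 ± 0.96 (limma, adjusted p = 0.678).

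In hatched blastocysts FN1 reached 232 to 663 CPM in vivo (median 341), above every morula. In vitro it ranged from 0.458 to 262 CPM (median 14.6), with 5 of 10 embryos below every in vitro morula and 1, C3 at 262 CPM, inside the in vivo range. The step from the morula was 4.50 ± 0.41 in vivo (limma, adjusted p = 5.88e-09) and -0.85 ± 0.73 in vitro (limma, adjusted p = 0.360). Their difference was 5.35 ± 0.91 (limma, adjusted p = 3.88e-05). Between the sources the difference was 4.18 ± 0.64 (limma, adjusted p = 2.31e-05) and was called in all 20 fits that left out 1 embryo, while DESeq2 gave 2.68 (adjusted p = 0.00121) and did not call it. The mean of the in vitro group, 55.6 ± 82.9 CPM (SD, n = 10), against 362 ± 124 CPM (SD, n = 10) in vivo, rested largely on C3 and E3 (126 CPM). FN1 is on chromosome 15 (117658158 to 117737145).

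Single embryos stood out across several members at once. In vivo hatched blastocyst G3 had the highest value of 7 of 10 members (COL4A1, COL4A2, COL18A1, LAMA1, LAMB1, LAMC1 and FN1), and H4 was highest or second for 7. In vitro hatched blastocyst C3 was likewise highest for 7 of 10 members of its group (COL4A2, COL18A1, LAMA1, LAMC1, NID2, SPARC and FN1). In vivo morula B2 was highest for 5 of 10 (COL4A1, LAMA1, LAMB1, LAMC1 and NID2) and lowest for FN1, at 0.405 CPM from a single read. Their depth was 3.26 M reads in G3, 5.56 M in H4, 4.39 M in C3 and 2.27 M in B2. Without G3 the source differences of COL4A1, COL18A1 and FN1 remained called (2.64, 2.54 and 4.08), and without C3 they were 2.95, 2.86 and 4.6.

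**Figure D4:**
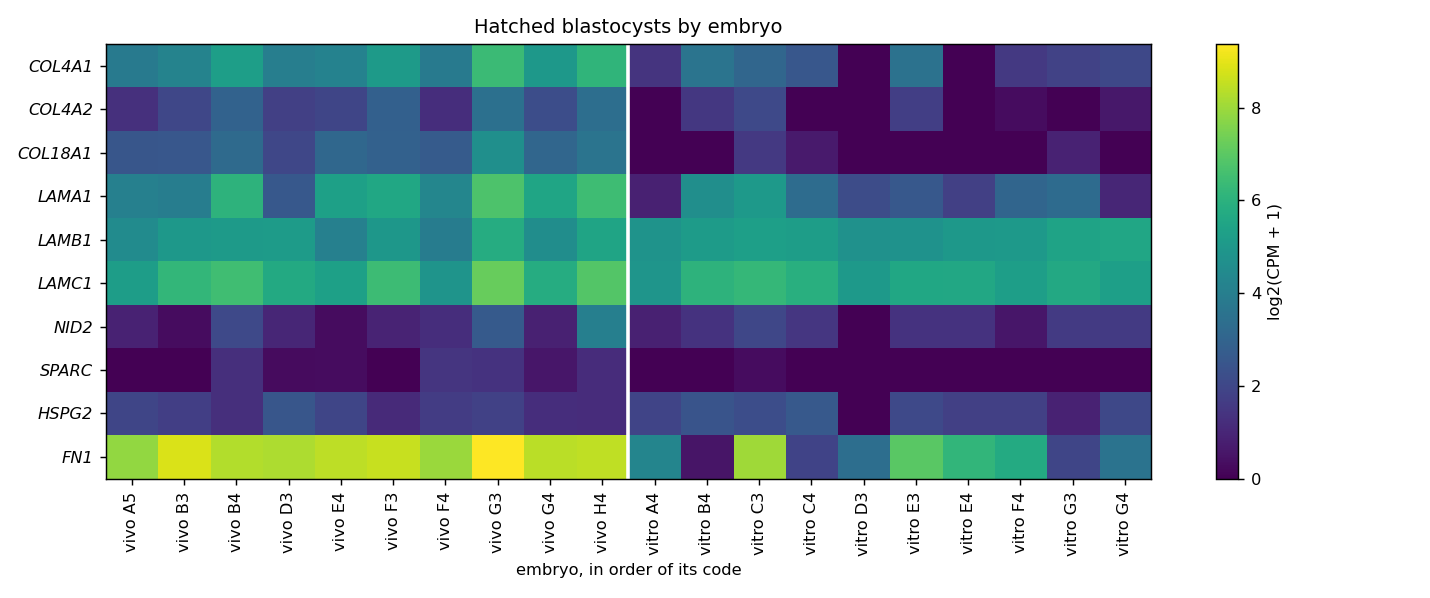
Log2(CPM + 1) of the 10 members in each of the 20 hatched blastocysts, in vivo left and in vitro right of the white line, each column 1 embryo. Colours compare embryos within a row, since gene length was not taken into account. G3 and H4 in vivo and C3 in vitro were high across several rows, and FN1 varied from 0.458 to 262 CPM in vitro.

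Among the in vivo hatched blastocysts most pairs of collagen and laminin chains varied together, but LAMA1 was not shown to follow the other 2 laminin chains. Over the 36 pairs of the 9 members with reads in all 10 embryos, 17 had an adjusted p under 0.05 for Pearson's r (permutation test with 100000 random orders, two-sided, adjusted over the 36 pairs), and 12 of these were among the 15 pairs of collagen and laminin chains, whose r ran from 0.38 to 0.96. Pairs of these chains that did not pass were LAMA1 with LAMB1 (r = 0.38, permutation adjusted p = 0.317), LAMA1 with LAMC1 (0.66, 0.0648) and COL18A1 with LAMB1 (0.52, 0.157). Without the 2 embryos farthest from the median of the gene named first, their r was 0.84, 0.93 and 0.47. COL4A1 and COL4A2 were most closely tied, with r = 0.96 and rho = 0.99 (permutation, adjusted p = 0.00036 for both), and r was 0.93 without the 2 embryos farthest from the COL4A1 median. LAMB1 and LAMC1 gave r = 0.92 and rho = 0.85 (permutation, adjusted p = 0.00288 and 0.0147), with r = 0.87 without the 2 embryos farthest from the LAMB1 median. COL4A1 and LAMB1 gave r = 0.78 and rho = 0.73 (permutation, adjusted p = 0.0248 and 0.0499), and r fell to 0.48 without the 2 farthest embryos, so that relation rested on them. This was not the sole such pair past the threshold: r fell from 0.80 to 0.45 for COL4A1 with NID2 and from 0.72 to 0.35 for COL4A2 with NID2. For COL18A1 with LAMA1 it rose from 0.89 to 0.96. HSPG2 ran the other way, with r below 0 in all 8 of its pairs (-0.71 to -0.12), 1 of them past the threshold. The values of an embryo share its library and scaling, and litters are unknown. Pairs of other genes were not computed in these embryos, so whether the counts of related pairs are particular to these chains was not tested.

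The other 25 basement membrane genes listed (further laminin and collagen IV chains, NID1, fibulins, hemicentin and others) were mostly not called. Between the hatched blastocysts 2 of 23 tested were higher in vivo, where 2.2% of all genes were, and 1 was lower, where 2.07% were, with a median log2 fold change of -0.10 against 0.01 over all genes and 1.15 over the 10 members. The difference between the lists was not tested. The higher pair was NID1, nidogen 1, at 28.6 against 0.875 CPM (3.99 ± 0.41, limma adjusted p = 6.21e-08), and FBLN1, fibulin 1, at 10.3 against 0.756 CPM (2.83 ± 0.32, limma adjusted p = 3.06e-07). HMCN1, hemicentin 1, was lower in vivo, at 0.523 against 3.24 CPM (-1.39 ± 0.28, limma adjusted p = 0.000674). NID1 thus differed between the sources where NID2 was not shown to. The same 3 genes were the ones called from morula to hatched blastocyst in vivo (NID1 4.08, FBLN1 3.29, HMCN1 -1.74; limma adjusted p of 9.43e-07, 1.00e-09 and 7.90e-05), in a comparison that shares the in vivo hatched blastocysts with the former. In vitro that step called TINAGL1 (2.64) and LAMA5 (1.96), both higher (limma adjusted p = 6.70e-08 and 2.47e-05).

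From 4-cell embryo to morula all calls among the other chains were lower, and most chains were not called in vivo: 3 of 22 passed in vivo (FREM2 -4.53, LAMA2 -3.58 and COL4A6 -3.11; limma adjusted p = 2.06e-07, 8.97e-05 and 0.000797) and 11 of 23 in vitro, led by COL4A6 (-5.32), FREM2 (-4.55) and LAMA3 (-3.57), with limma adjusted p of 1.67e-09, 2.02e-08 and 7.15e-08. At this step 7.86% of all genes were called lower in vivo and 22.7% in vitro.

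Of 18 genes for collagen processing and crosslinking, 1 of 16 tested differed between the hatched blastocysts, where 4.27% of all genes were called. SERPINH1, which encodes the collagen chaperone HSP47, was higher in vivo at 2.70 against 0.197 CPM (1.49 ± 0.26, limma adjusted p = 0.000109). It also rose from the in vivo morula (1.68 ± 0.25, limma adjusted p = 1.18e-05), with PPIB (2.43) and P4HB (1.61) among 4 of 17 called higher, where 5.81% of all genes were. In vitro 3 of 18 rose at that step (PLOD3 2.01, P4HA2 1.63, P4HB 1.61) and LOX fell (-1.92). There 9.98% of all genes were called higher and 10.2% lower. From 4-cell embryo to morula 1 of 17 rose and 1 fell in vivo (PPIB 4.87, PLOD2 -4.62), and 5 rose and 4 fell of 18 in vitro, led by PPIB (4.41), PLOD2 (-3.78) and LOXL2 (-3.46). Of all genes, 14.9% were called higher and 7.86% lower at this step in vivo, and 16% and 22.7% in vitro. The test was limma, with an adjusted p of 0.000152 at most in the genes named.

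Of 19 matrix receptor genes, 1 of 17 tested differed between the hatched blastocysts, where 4.27% of all genes were called. This was ITGB3, integrin beta 3, at 3.64 CPM in vivo against 0.299 CPM in vitro (1.72 ± 0.27, limma adjusted p = 3.11e-05). ITGA5, which pairs with integrin beta 1 as the main fibronectin receptor, rose from the morula in both sources, by 3.18 ± 0.40 in vivo (limma, adjusted p = 1.14e-06) and by 4.06 ± 0.33 in vitro (limma, adjusted p = 1.37e-10), to 37.2 and 33.0 CPM. It was the leading gene of 3 called higher in vivo (ITGB3 2.0, DAG1 1.32) and of 4 in vitro (ITGA6 2.33, SDC4 1.75), where SDC2 fell. From the morula 5.81% of all genes were called higher in vivo, and 9.98% higher and 10.2% lower in vitro. At the step from 4-cell embryo to morula ITGB1 (6.06 in vivo, 5.34 in vitro) and SDC1 (4.38 and 2.98) rose in both sources and ITGA2 fell in both (-5.36 and -4.29). In all, 2 rose and 2 fell of 17 in vivo, and 2 rose and 5 fell of 18 in vitro. Of all genes, 14.9% were called higher and 7.86% lower there in vivo, and 16% and 22.7% in vitro. For the genes named here the limma adjusted p was 3.83e-05 at most.

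Of 13 matrix proteases and their inhibitors, 1 of 10 tested differed between the hatched blastocysts, where 4.27% of all genes were called. TIMP3, an inhibitor held in the matrix, was lower in vivo, at 32.2 against 68.7 CPM (-1.04 ± 0.18, limma adjusted p = 0.000129). From the morula TIMP4 (-1.97) fell in vivo, where 3.14% of all genes were called lower. In vitro TIMP3 rose (3.50) and TIMP4 (-5.73) and TIMP2 (-2.09) fell of 13, where 9.98% of all genes were called higher and 10.2% lower. From 4-cell embryo to morula TIMP3 (4.57), TIMP2 (3.75) and TIMP4 (2.78) rose in vivo, and 2 of 13 in vitro (TIMP2 3.37, TIMP4 3.36), with none lower in either source (limma, adjusted p of 0.000311 at most in the genes named). There 14.9% of all genes were called higher in vivo and 16% in vitro. Of the 7 interstitial collagen genes, at most 5 passed the filter in any comparison, none was called between the sources, and 1 was called between stages, COL1A2, lower in in vitro morulae than in 4-cell embryos.

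Part of the hypoblast markers differed beside the members. Of 8 hypoblast markers, all tested, 4 were called higher in in vivo hatched blastocysts, where 2.2% of all genes were, and none lower. These were APOA1 (4.71), APOE (3.08), SOX17 (2.10) and FOXA2 (1.18), with limma adjusted p of 0.00086, 0.000141, 0.00029 and 0.00036. The summed level of all 8 markers was 1360 to 5147 CPM in vivo (median 3403) and 195 to 2314 CPM in vitro (median 436), the in vitro maximum being embryo C3. In vivo most of the sum was APOA1, at 1047 to 4839 CPM. In vitro APOA1 ranged from 0 to 1840 CPM, and was 0 CPM in G3 and 0.458 CPM in B4, whose sums were 195 and 316 CPM. The transcription factor SOX17 ranged from 3.48 to 15.9 CPM in vivo and from 0 to 12.8 CPM in vitro, again highest in C3. All 8 markers had reads in both groups, whereas SOX17 and FOXA2 had none in the in vivo morulae. From morula to hatched blastocyst in vivo the same 4 markers were called higher and GATA6 lower (-1.28 ± 0.17, limma adjusted p = 2.62e-06), at 344 and 140 CPM. None of the 8 trophectoderm markers and none of the 4 inner cell mass markers measured was called between the hatched blastocysts, and the part of any cell type in the differences was not tested.

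Within the in vivo hatched blastocysts, the summed hypoblast markers were mostly APOA1, so relations to the sum there largely reflect that gene. The sum was related to LAMA1 with r = 0.78 and rho = 0.65 (permutation, adjusted p = 0.0352 and 0.0991, over 10 relations computed), with r = 0.53 without the 2 embryos farthest from the marker median. For FN1 r was 0.71 and rho 0.87 (permutation, adjusted p = 0.0484 and 0.0245), and 0.89 without the 2 embryos. For COL4A1 r was 0.67 and rho 0.78 (permutation, adjusted p = 0.0489 and 0.0354), and 0.65 without them. For COL18A1 r was 0.73 and rho 0.61 (permutation, adjusted p = 0.0484 and 0.113), and for LAMC1 r was 0.71 and rho 0.79 (permutation, adjusted p = 0.0484 and 0.0354), with 0.74 and 0.82 without the 2 embryos. Within the in vitro hatched blastocysts FN1 alone passed by Pearson's r, at 0.82 with rho 0.68 (permutation, adjusted p = 0.0346 and 0.0860), and r was 0.60 without the 2 farthest embryos. The other 4 members had r from 0.32 to 0.41 there (permutation, adjusted p from 0.340 to 0.382), and without the 2 farthest embryos r was -0.21 for COL4A1, -0.35 for COL18A1, -0.027 for LAMC1 and 0.096 for LAMA1. In vitro B4, with 316 CPM of hypoblast markers, had 23.8 CPM of LAMA1 and 0.458 CPM of FN1, and E3, with 1624 CPM, had 5.01 and 126 CPM.

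**Figure D5:**
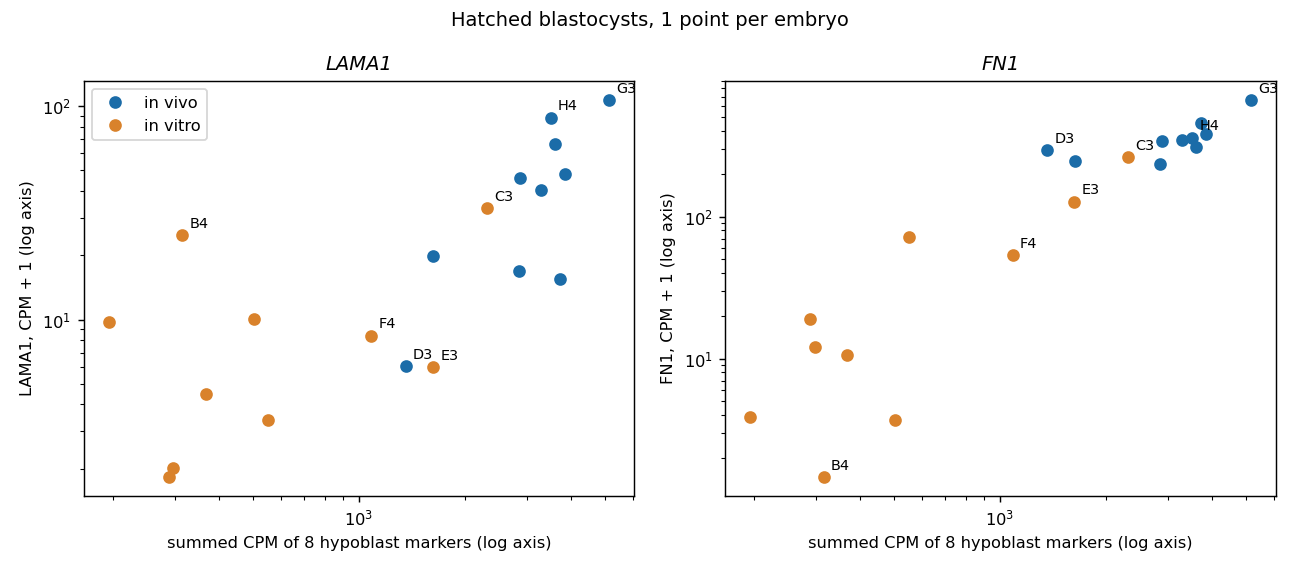
LAMA1 (left) and FN1 (right), each as CPM + 1, against the summed CPM of 8 hypoblast markers, both on log axes, with 1 point per hatched blastocyst and selected embryos named by code. In vitro C3, at 2314 CPM of markers, lay next to the in vivo embryos in both plots, while B4 was second highest of its source for LAMA1 and lowest for FN1.

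Markers of other cell types that the samples could hold were also summed in the hatched blastocysts. Of 6 stroma markers the summed level was 0.201 to 2.77 CPM in vivo and 0 to 3.77 CPM in vitro, and the defining COL3A1 and LUM had no read in either group. The 6 cumulus markers summed to 0.623 CPM at most, and the 4 sperm markers to 0.870 CPM at most. The 4 blood markers reached 1.68 CPM in vivo and 27.9 CPM in vitro (E3), and the 4 oviduct and uterine markers 1.15 and 11.3 CPM, with in vitro medians of 3.85 and 3.80 CPM. Their part in the differences was not tested. The 8 oocyte markers fell from 2738 to 20651 CPM in 4-cell embryos to 6.90 to 34.8 CPM in in vivo morulae and 57.7 to 2042 CPM in in vitro morulae, beside the falls of LAMB1 and NID2 in both sources and of LAMC1 in vitro.

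Likeness was ranked among 13888 genes over 0.5 CPM in at least 5 embryos, with entries that have only a LOC symbol left out. The genes whose course over all 50 embryos was most like that of COL4A1 were LAMA1 (r = 0.87), COL4A2 (0.84), FLRT3 (0.84), SCNN1B (0.81) and SCARB1 (0.81). Those most like LAMC1 were FERMT2 (0.86), MGAT4A (0.84), PRUNE2 (0.84), ARHGAP32 (0.84) and ABCC2 (0.84). These correlations of log2(CPM + 1) span stages and sources and describe the shared course. Within the 20 hatched blastocysts those of COL4A1 were 0.80 to 0.93, and those of LAMC1 were -0.21 to 0.38. Both sources were pooled for these values without centring, so the source difference of COL4A1 enters them. FLRT3, a leucine-rich transmembrane protein, separated the hatched blastocysts as COL4A1 and COL18A1 did, at a mean of 64.8 CPM in vivo and 2.14 CPM in vitro (4.74 ± 0.49, limma adjusted p = 6.85e-08). FERMT2, which encodes the integrin activator kindlin 2, was at 143 and 186 CPM (-0.33 ± 0.14, limma adjusted p = 0.0891).

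Between the sources at the earlier stages the members gave values but no call. In morulae the largest differences were LAMB1 (1.74, given above) and FN1, lower in vivo at -1.16 ± 0.53 (limma, adjusted p = 0.129), and COL18A1, at 0 in vivo, had 0.430 CPM on average in vitro (limma, adjusted p = 0.0224). At 4 cells COL4A1 and COL4A2 had no read in vivo and a read in 4 of 5 in vitro embryos each (limma, adjusted p = 0.0823 and 0.226). The median over all genes was -0.66 there. Limma called none of 19927 genes (5820 at an unadjusted p under 0.05, 0 with edgeR and 262 with DESeq2), so the main test resolved no single gene. Every in vivo 4-cell embryo lay below every in vitro one for 9.7% of all genes, and above for 0.427%. The groups thus differed broadly, at a stage where RNA quality also differed. No difference between the sources in the step from 4-cell embryo to morula was called for any of the 10 members, where 3.17% of all genes were.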

How the data were processed

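Whole single embryos were lysed and sequenced with Smart-seq2, an oligo-dT full-length method without molecular identifiers or strand information, so overlapping genes cannot be told apart. Per the labels and the study's methods the authors ran FastQC, MultiQC, Trim Galore, HISAT2 against Sus scrofa 11.1, and edgeR. The counting tool and annotation release are not given in the sources used here. The deposited values are a signal in CPM, scaled by the authors with normalization factors. In each of the 50 embryos 100% of the values were whole multiples of what 1 read is worth (within 0.1 reads), so reads were recovered for count tests. For in vivo 4-cell embryo B1 that rests on the same check, although its step lies near a power of 10. All 30321 identifiers matched the NCBI table of Sscrofa11.1, 17413 with a gene symbol.

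Groups followed the source labels. The main test was limma 3.58.1 (R 4.3.3) with a variance trend on log2(CPM + 1), restricted to genes that exceeded 0.5 CPM in 1 or more of the embryos compared, with Benjamini-Hochberg adjustment over all genes tested. With edgeR 4.0.16 and DESeq2 1.42.0 it was tested on simulated data. Alternatives were pseudocounts of 0.1 and 5 CPM, no filter, over 1 CPM in at least 5 embryos, plain library totals, both count tools, leaving out each embryo, a block on shared title codes and, chosen after seeing the data, leaving out embryos under 2 M reads and the unblocked fit on the same embryos. Intervals of fold changes come from the limma spread between embryos. The limit for a group without reads is 3 reads over the group and covers counting error only. Members and gene lists were chosen with earlier results of these data known. From other lists, up to 3 called genes with the largest change per comparison are named; ITGA5, FERMT2 and FLRT3 are also given for their levels. No transcript lengths were used, so levels are not compared between genes. A gene of the list of matrix proteases and inhibitors is not reported here.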

Additional observations from a re-analysis of the deposited data

Results flagged for a closer look

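In 53 sets of member and group, 10 held an embryo whose gap to the next on the log2(CPM + 1) scale was over Dixon's 95% limit (0.71 of the range for 5 embryos, 0.466 for 10). Chance flags about 1 in 20 sets of continuous values, a rate that does not hold for the 6 sets in which a single embryo had reads, since these must pass the limit. In vivo morula B2 accounted for 3: LAMB1 at 46.6 CPM with the next embryo at 20.8 CPM, NID2 at 14.6 CPM with the next at 2.20 CPM, and FN1 at 0.405 CPM, from 1 read, with the next at 8.03 CPM. B2 had 11150 genes with a read, 2.27 M reads and the highest trophectoderm marker sum of its group, 6589 CPM. In vivo 4-cell embryo B1 was the sole embryo of its group with reads of LAMA1 (1.41 CPM, 14 reads) and of COL18A1 (0.101 CPM, 1 read), and D1 the sole one with FN1 (9.5 CPM, 50 reads). Among in vitro 4-cell embryos, E1 had 1.20 CPM of COL4A2 and D1 was alone in having SPARC reads (2.31 CPM, 11 reads). SPARC was also found in only 1 in vitro morula (D2, 0.447 CPM) and 1 in vitro hatched blastocyst (C3, 0.246 CPM).

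The step from morula to hatched blastocyst differed between the sources by the interaction test for COL18A1 (3.18), FN1 (5.35) and LAMB1 (-1.98), with the limma adjusted p given in the report. COL18A1 and FN1 were called in all 4 alternative fits of that test and LAMB1 in none of them.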

How the results depend on the processing

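No called member changed direction under any alternative. Of the values of called members under other settings, 142 stayed called and 18 did not, and of those with 1 embryo left out, 307 stayed called and 23 did not. The losses are given with each gene in the report, or below for the shared codes. The cause of the changes below was not tested.

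From 4-cell embryo to morula in vivo, 2 members were called, 1 without the filter, 4 with DESeq2, 1 without the embryos under 2 M reads and 1 to 3 with 1 embryo left out (3 without morula B2). Between the hatched blastocysts 769 genes were called, 423 with a pseudocount of 5 CPM, and between the morulae 509, or 1354 with DESeq2. Between the 4-cell embryos 0 were called, or 262 with DESeq2, and the source difference in the step from 4-cell embryo to morula gave 717, or 390 with edgeR. Embryos of both sources share title codes, which named no common origin: of 6, 8 and 5 shared codes at the hatched blastocyst, morula and 4-cell stages, 0, 2 and 0 had correlated deviations over 0.1. A replicate block on these codes called 202 genes between the hatched blastocysts and 152 between the morulae, against 312 and 123 in the same embryos without the block. COL4A2 lost its call in both fits (1.86, limma adjusted p = 0.00412 with the block and 0.00301 without).

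Members that were not called changed sign as follows (log2 fold change). With edgeR, COL4A1 in the in vitro step from 4-cell embryo to morula was 0.085. In the in vivo step to the hatched blastocyst HSPG2 was -0.061 with a pseudocount of 5 CPM and -0.99 with edgeR. In vitro at that step COL4A2 was -0.13 and NID2 0.041 with a pseudocount of 0.1 CPM, FN1 was 0.19 with edgeR and 0.052 with DESeq2, and HSPG2 was 0.21 without the embryos under 2 M reads. Between the hatched blastocysts HSPG2 was 0.051 with a pseudocount of 0.1 CPM and 0.26 in the embryos of shared codes, with and without the replicate block. Between the morulae it was 0.39 with edgeR and 0.45 with DESeq2. Between the 4-cell embryos LAMC1 was 0.032 with plain library totals, 0.059 with edgeR and 0.12 with DESeq2, and NID2 was 1.45 with edgeR and 1.46 with DESeq2. In the source difference of the step to the hatched blastocyst HSPG2 was -0.025 with a pseudocount of 5 CPM and -0.80 with edgeR, and in that of the earlier step FN1 was -0.22 with a pseudocount of 5 CPM and HSPG2 2.96 with edgeR.

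With 1 embryo left out, COL4A1 in the in vitro step from 4-cell embryo to morula ran from -0.40 to 0.12. In the in vitro step to the hatched blastocyst COL4A2 ran from -0.054 to 0.22, NID2 from -0.30 to 0.11 and HSPG2 from -0.18 to 0.18. NID2 ran from -0.084 to 0.33 between the hatched blastocysts and from -1.15 to 1.08 between the 4-cell embryos, the latter without in vivo C1, and LAMA1 from -0.62 to 0.013 there.

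With plain library totals the share of higher calls fell from 49.5% to 30.2% in the in vitro step to the hatched blastocyst and from 39.5% to 18.6% between the morulae, and moved from 60.1% to 76.5% and from 88.3% to 70.3% in the source differences of the later and the earlier step. The median of all genes moved from -0.11 to -0.23, from -0.11 to -0.21, and, between the 4-cell embryos, from -0.66 to -0.52, and in the source difference of the earlier step from 0.39 to 0.20. Depth limits genes such as SPARC, COL18A1, COL4A2 and HSPG2 in groups where a few reads decide a value.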
